A study of Mus musculus with 11 samples.

Results

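The genes described are those of the integrins and of the focal adhesion proteins that tie them to actin. They were chosen by symbol: all integrin alpha and beta subunit genes, the talins, kindlins, parvins, tensins, filamins and alpha-actinins, *Lims1* and *Lims2*, and *Vcl*, *Pxn*, *Ilk*, *Ptk2*, *Src*, *Bcar1*, *Zyx*, *Vasp*, *Cav1* and *Tgfb1i1*. Of the 14272 genes with deposited values, 48 belonged to this set. The annotation held 57 such symbols, and the 9 with no value were *Actn2*, *Fermt1*, *Itga4*, *Itgad*, *Itgal*, *Itgam*, *Itgax*, *Itgb6* and *Tgfb1i1*. The set with values comprised 13 alpha and 7 beta subunits, 4 activators (2 talins and 2 kindlins), 6 genes of the ILK-PINCH-parvin complex, 13 genes of actin cross-linkers or actin-linked plaque proteins, and 5 of adhesion signalling.

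Total RNA was sequenced from 4 murine cell lines that model melanoma progression. Melan-a is a spontaneously immortalized, nonmalignant melanocyte line syngeneic to C57Bl/6 mice with an epithelial morphology. The 4C (pre-malignant, not tumorigenic), 4C11- (melanoma, not metastatic) and 4C11+ (metastatic melanoma) lines were derived from it by repeated cycles in which the cells were kept from anchoring, and 4C and 4C11- are mesenchymal-like while 4C11+ is epithelial. All lines grew in RPMI with 5% fetal bovine serum, and only melan-a also received 200 nM PMA, a phorbol ester, so the agent and the line cannot be told apart in any comparison with melan-a. The 11 libraries used here were replicates 2 and 3 of melan-a and 3 replicates of every derived line. The methods call them triplicates and do not say whether each came from a separate culture. Each condition is thus a single cell line. The p-values rest on the spread between libraries of the same line, pooled over the 4 lines and drawn toward a trend over all genes. Values are log2 CPM, the log2 of counts scaled to a common library size, and a gene was called absent from a line when none of its libraries was above 3 reads.

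Integrins are heterodimers of an alpha and a beta subunit that bind extracellular matrix outside the cell. Talin and kindlin bind the beta tail and activate the receptor, and the ILK-PINCH-parvin complex, vinculin, filamins, alpha-actinins and tensins connect it to actin filaments. Focal adhesion kinase (*Ptk2*), *Src*, p130Cas (*Bcar1*) and paxillin (*Pxn*) transmit the signal of attachment, on which many adherent cells depend for survival.

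The lines were compared with the markers of their labelled cell type. The summed level of 10 melanocyte genes reached 1966 to 9209 CPM in melan-a and 11312 to 13609 CPM in 4C11+, but only 4.03 to 8.71 CPM in 4C, where *Oca2*, *Tyr* and *Sox10* were absent, and 4.36 to 12.9 CPM in 4C11-, where *Kit*, *Oca2* and *Tyr* were absent. The sums hide differences between members. In melan-a, *Tyr* was -0.25 (the value of 3 reads) and 1.29 log2 CPM, and *Oca2* 0.06 and 4.56. *Pmel* was 2.41 and 2.95 in melan-a and 11.72 to 12.20 in 4C11+. *Kit* went the other way, at 6.92 and 6.18 in melan-a and 2.17 to 4.22 in 4C11+. Of 7 fibroblast markers 3 had values (*Pdgfra*, *Col1a1* and *Pdgfrb*), with sums of 19.6 to 205 CPM in melan-a, 25.4 to 44.4 CPM in 4C11+, 2240 to 2577 CPM in 4C and 1934 to 2181 CPM in 4C11-. *Vwf* and *Cdh5*, the 2 of 6 endothelial markers with values, summed to 95.8 to 178 CPM in 4C11- and 1.02 to 30.2 CPM in the other lines. Only 1 of 7 keratinocyte (*Krt10*) and 1 of 8 leukocyte (*Csf1r*) markers had values. The melanocyte and fibroblast sums split the lines as many of the adhesion genes did, and the endothelial sum did not. The part of these cell types in the results was not tested. In such bulk RNA, fewer cells of a type and less RNA per cell cannot be told apart.

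The depth, estimated from steps of single reads, was about 3.50 and 5.82 M reads for the melan-a libraries and 4.07 to 7.42 M reads for the other 9. The values look quantile normalized, which does not keep the library size, so these depths are approximate. Libraries that shared the lowest value of -3.44 log2 CPM were given 5.67 to 7.42 M reads. The 2 melan-a libraries stood apart from each other. In replicate 2, 43 genes were over 6 log2 units above replicate 3, and 0 the other way. *Tns1*, which links integrin tails to actin, was the widest of the set, at 8.11 and -0.54 log2 CPM in the 2 libraries, 8.65 apart. *Tyrp1* was 8.51 and 12.63, and *Pdgfrb* 6.90 and 0.89 log2 CPM. The counts of called members in each comparison with melan-a are therefore given also without each of these libraries. Other counts that use melan-a rest on both libraries only. These include the counts without overlap, of subunit pairs, of actin-linked genes and of the 3 pathway lists.

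The lines differed in which alpha subunits and which actin cross-linkers they transcribed, while *Itgb1*, *Itgav* and *Ptk2* were called in no comparison. 4C and 4C11- carried high *Itga3*, *Itga11*, *Flnc*, *Tns4* and *Cav1*, and melan-a and 4C11+ carried high *Itga6* and *Itgb3*. In the comparison of 4C with melan-a, the first step of the series, 17 of the 48 genes (35.4%) passed an adjusted p of 0.05 in limma, beside 15.2% of all genes tested. Of these, 11 rose and 6 fell, beside 7.64% of all genes higher and 7.55% lower. The count was 17 without melan-a replicate 2, of which 14 were shared, and 13 without melan-a replicate 3, all shared. The shares of all genes called without each library are not given here or below, so no excess can be read from such counts.

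The step from 4C to 4C11-, both mesenchymal-like, changed only 1 gene of the set (2.08%) in limma, the beta subunit *Itgb8*, which rose, beside 1.67% of all genes (1.26% higher and 0.406% lower). A further 14 passed an unadjusted p of 0.05 alone, but the share of all genes that did so was not counted, so no excess can be read from it. The step from 4C11- to the metastatic 4C11+ changed 18 (37.5%), 6 higher and 12 lower, beside 31.1% of all genes tested (15.6% higher and 15.4% lower). The median difference of the 48 genes at this step was -0.37 log2 units, and that of all genes was 0.12.

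When both mesenchymal-like lines were compared with both epithelial lines, 25 of the 48 (52.1%) differed, 15 higher and 10 lower in the mesenchymal-like lines, beside 29.7% of all genes (14.3% higher and 15.3% lower). The count was also 25 without either melan-a library, with 23 shared when replicate 2 was left out and 22 when replicate 3 was. The epithelial lines compared with each other, 4C11+ against melan-a, differed in 9 genes (18.8%), 3 higher and 6 lower, beside 15.9% of all genes (8.39% higher and 7.52% lower). That count was 6 without melan-a replicate 2 and 11 without replicate 3, each with 5 of the 9 shared. In all, 27 of the 48 genes (56.2%) were called in at least 1 of the 5 comparisons, beside 43.1% of all genes, and 21 in none. These comparisons share libraries, so their counts are not independent.

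A looser count is that of genes whose libraries did not overlap between the sides of a comparison. It was 29 of 48 in 4C against melan-a, beside 42.1% of all genes, and 14 in 4C11- against 4C, beside 19.3%. It was 29 in 4C11+ against 4C11- (47% of all genes) and 20 in 4C11+ against melan-a (46.6% of all genes). Over all 4 lines, 14 members, among them *Itga3*, *Itga6*, *Itga11* and *Flnc*, did not overlap between the mesenchymal-like and epithelial libraries, beside 13.9% of all genes.

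Promoters are shown for members that were high in both mesenchymal-like lines (*Itga3*, *Itga11* and *Flnc*) and for *Itga8*, which was low there. Each is the run of 250 bases before a RefSeq transcription start (GRCm38.p6), read 5′ to 3′ on the strand of the gene, and capitals mark a match to 1 of 5 motifs searched on both strands: GGAATG (bound by TEAD factors), TGANTCA (AP-1), the E-boxes CAGGTG and CACGTG, and the CArG box.
Itga3, chr11:95076715-95076964, minus strand: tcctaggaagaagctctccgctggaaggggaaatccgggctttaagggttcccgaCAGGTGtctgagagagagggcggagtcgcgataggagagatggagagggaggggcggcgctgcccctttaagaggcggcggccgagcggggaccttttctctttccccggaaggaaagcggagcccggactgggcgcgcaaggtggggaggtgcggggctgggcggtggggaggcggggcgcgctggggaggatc
Itga11, chr9:62677605-62677854, plus strand: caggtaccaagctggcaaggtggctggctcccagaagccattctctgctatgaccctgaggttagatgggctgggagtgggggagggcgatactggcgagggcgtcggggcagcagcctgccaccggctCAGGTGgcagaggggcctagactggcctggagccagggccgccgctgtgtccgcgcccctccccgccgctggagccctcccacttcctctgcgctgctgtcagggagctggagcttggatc
Flnc, chr6:29433006-29433255, plus strand: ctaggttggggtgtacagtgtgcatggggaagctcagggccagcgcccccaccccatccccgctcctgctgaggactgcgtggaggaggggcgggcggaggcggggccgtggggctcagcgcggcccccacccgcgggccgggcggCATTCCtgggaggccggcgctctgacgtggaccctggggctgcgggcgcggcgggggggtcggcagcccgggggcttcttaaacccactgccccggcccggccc
Itga8, chr2:12301945-12302194, minus strand: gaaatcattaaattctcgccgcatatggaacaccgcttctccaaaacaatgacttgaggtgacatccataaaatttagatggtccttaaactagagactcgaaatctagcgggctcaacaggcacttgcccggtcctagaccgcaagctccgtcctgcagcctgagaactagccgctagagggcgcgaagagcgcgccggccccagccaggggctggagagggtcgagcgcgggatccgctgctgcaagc

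The capitals in *Itga3* and *Itga11* are a CAGGTG E-box, that of *Flnc* is GGAATG read on the other strand, and the *Itga8* window held none of the 5. Promoters were found for 34 of the 48 members, 42 windows of 300 bases with 50 bases after the start included. GGAATG was in 16.7% of these windows and 14.7% of all 32851 promoters, and CAGGTG in 23.8% and 20.2%. TGANTCA was in 9.52% against 7.81%, CACGTG in 4.76% against 7.15%, and the CArG box in 4.76% against 1.63%, the last in 2 windows, of *Fermt2* and *Vcl*. *Itga3* and *Flnc* each have a second start in the RefSeq table. That of *Itga3* (chr11:95069199-95069448 for its 250 bases) has no match before the start and a TGANTCA just after it, and that of *Flnc* overlaps the window shown. No match overlapped another in the 4 windows shown, and a match describes letters only.

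Among alpha subunits, *Itga3* and *Itga6*, both of laminin receptors that pair with *Itgb1*, took opposite places. *Itga3* (chromosome 11, 95044474 to 95076801, GRCm38) was 6.90 and 6.73 log2 CPM in melan-a, 8.76, 9.18 and 9.36 in 4C, 8.82, 8.20 and 8.34 in 4C11-, and 1.70, 1.68 and 1.04 in 4C11+. The 4 lines thus fell into high, middle and low levels with no overlap except between 4C and 4C11-. *Itga3* rose by 2.28 log2 units in 4C over melan-a (SE 0.30, adjusted p = 0.000239, limma) and fell by 6.98 in 4C11+ against 4C11- (SE 0.26, adjusted p = 1.6e-08, limma). The level in 4C11+ was also below that in melan-a (log2 difference -5.34, SE 0.30, adjusted p = 6.1e-07, limma).

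*Itga6* (chromosome 2, 71745616 to 71858416) was 8.87 and 8.96 log2 CPM in melan-a, 6.91, 6.30 and 6.60 in 4C, 5.69, 5.98 and 6.11 in 4C11-, and 7.97, 7.96 and 8.56 in 4C11+. All 5 epithelial libraries were above all 6 mesenchymal-like ones. The gene fell by 2.31 log2 units in 4C against melan-a (SE 0.26, adjusted p = 8.5e-05, limma) and rose by 2.24 in 4C11+ against 4C11- (SE 0.24, adjusted p = 2.8e-05, limma). Between melan-a and 4C11+ its difference was -0.75 (95% interval -1.32 to -0.17) with an adjusted p of 0.0776 in limma.

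*Itga8*, of a receptor for RGD ligands such as nephronectin, was read at 5.75 and 7.48 log2 CPM in melan-a, -2.44, -3.44 and -3.44 in 4C, -0.24, -1.01 and -3.15 in 4C11-, and 2.78, 3.54 and 2.71 in 4C11+. It was absent from 4C, where it fell by at least 7.87 log2 units from melan-a (adjusted p = 8.2e-06, limma). It rose by 4.48 log2 units in 4C11+ against 4C11- (SE 0.75, adjusted p = 0.000849, limma), to a level still under melan-a (log2 difference -3.60, SE 0.83, adjusted p = 0.0143, limma), a call lost at an adjusted p of 0.0929 without melan-a replicate 3. Of its exon bases, 5.05% are shared with a gene on the other strand.

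*Itga9* and *Itga11* both lay near 0 log2 CPM in melan-a. *Itga9*, of a receptor for tenascin and osteopontin, was 0.40 and -0.70 log2 CPM in melan-a, 5.61, 5.29 and 5.30 in 4C, 6.78, 6.52 and 6.09 in 4C11-, and 5.26, 5.11 and 5.13 in 4C11+. It was high in all 3 derived lines, by 5.55 log2 units in 4C (SE 0.35, adjusted p = 8.1e-07, limma) and by 5.32 in 4C11+ (SE 0.35, adjusted p = 2.2e-06, limma). It was the only alpha subunit higher in 4C11+ than in melan-a past the threshold, and it fell by 1.29 from 4C11- to 4C11+ (SE 0.31, adjusted p = 0.00861, limma).

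*Itga11*, of a fibrillar collagen receptor, was 0.87 and -0.54 log2 CPM in melan-a, 4.04, 5.70 and 6.18 in 4C, 3.79, 4.38 and 2.03 in 4C11-, and -0.70, -2.44 and 0.48 in 4C11+. The mesenchymal-like libraries were all above the epithelial ones, although 4C and 4C11- overlapped and spread widely. It rose by 5.14 log2 units in 4C (SE 0.95, adjusted p = 0.00307, limma) and fell by 4.28 in 4C11+ against 4C11- (SE 0.85, adjusted p = 0.00265, limma).

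*Itga2*, of another collagen receptor, was 2.58 and 1.39 log2 CPM in melan-a, -0.70, 0.08 and -1.16 in 4C, -2.01, -0.24 and 0.02 in 4C11-, and 0.84, 0.67 and 0.48 in 4C11+. It fell by 2.57 log2 units in 4C against melan-a (SE 0.71, adjusted p = 0.0302, limma), a call lost at an adjusted p of 0.196 without melan-a replicate 2. *Itga5*, the fibronectin receptor subunit, fell by 1.68 log2 units in 4C11+ against 4C11- (SE 0.38, adjusted p = 0.00611, limma). *Itga1* ranged from 4.27 to 7.19 and *Itgav* from 6.33 to 8.72 log2 CPM over the 11 libraries, and neither was called in any comparison.

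**Figure D1:**
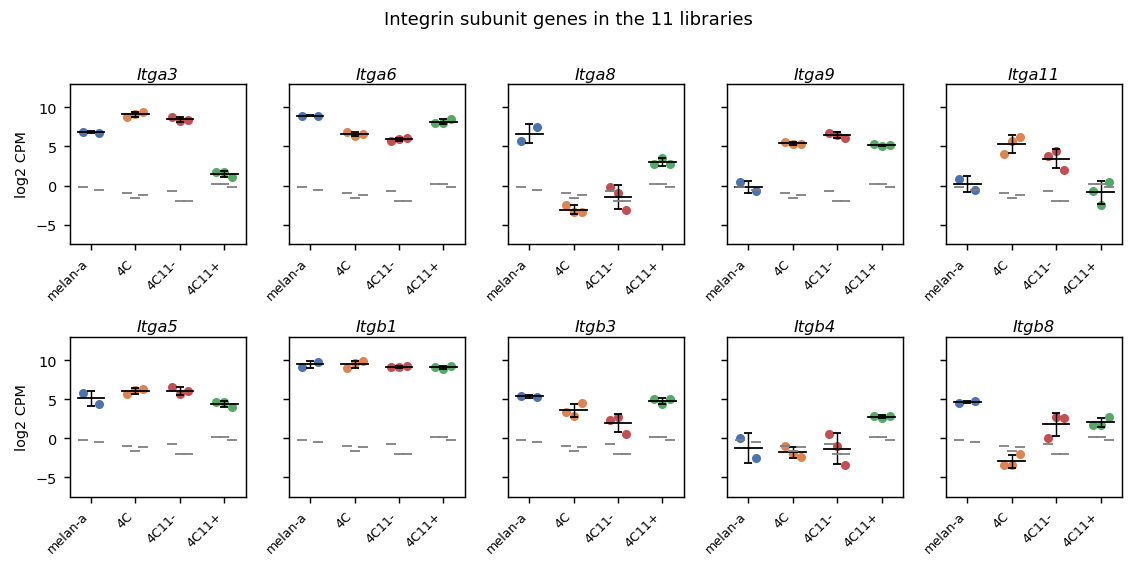
Level of 10 integrin subunit genes by line, in log2 CPM. Each point is 1 library, the black bar and whisker are the mean and SD of the line, and grey ticks mark the value of 3 reads in each library. *Itga3* stands lowest in 4C11+ (1.04 to 1.70), *Itga6* lowest in the mesenchymal-like lines, and *Itgb1* stays between 8.87 and 9.83 throughout.

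Expressed per kilobase of exon, the alpha subunits could be set against each other within a line. *Itga3* made up 56.1% ± 1.8 of the summed alpha signal of 4C and 52.8% ± 5.6 of that of 4C11- (SD, n = 3 each). Its share was 14.6% ± 1.5 for melan-a (SD, n = 2) and only 0.73% ± 0.26 for 4C11+ (SD, n = 3). *Itga6* instead held 39.5% ± 1.0 for melan-a (SD, n = 2) and 45.6% ± 3.8 for 4C11+ (SD, n = 3), against 6.65% ± 2.79 and 5.91% ± 1.44 for 4C and 4C11- (SD, n = 3 each). The ranges of the epithelial and the mesenchymal-like lines did not overlap for either gene.

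*Itga3* and *Itga6* together held 54.1%, 62.7%, 58.7% and 46.3% of the alpha signal per kilobase in melan-a, 4C, 4C11- and 4C11+. *Itgav*, of vitronectin and other RGD receptors, held 22.9%, 16.6%, 12.8% and 34.4%. The share of *Itga9* was 0.09% for melan-a and 9.92% ± 1.76 for 4C11- (SD, n = 3), and *Itga8* held 11.6% ± 8.6 for melan-a (SD, n = 2), where the 2 libraries gave 5.46% and 17.6%. These are shares of RNA per exon length and not of receptors.

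**Figure D2:**
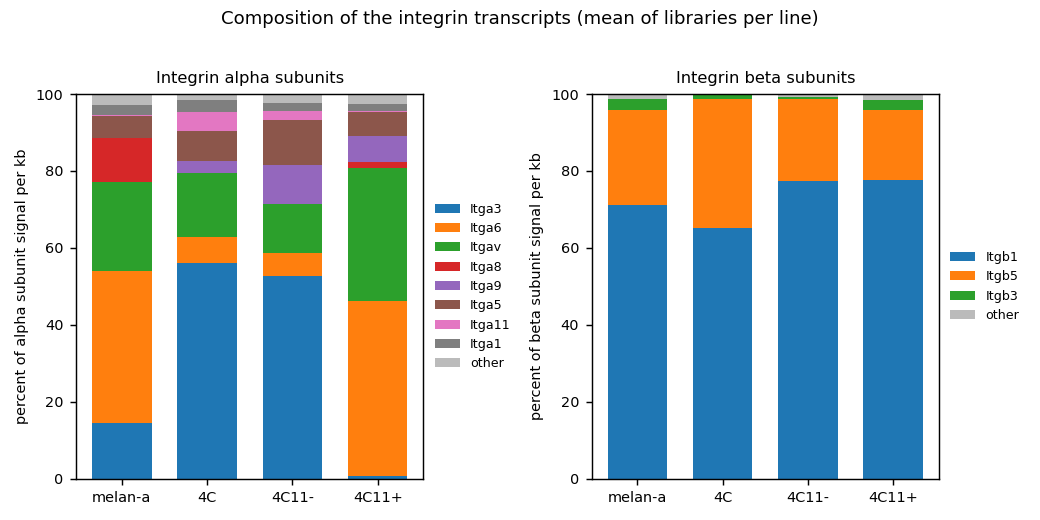
Composition of the integrin transcripts of each line, in percent of the summed alpha (left) or beta (right) subunit signal per kilobase of exon. Bars are means of the libraries of a line and start at 0. *Itga3* fills 56.1% of the alpha bar in 4C and 0.73% in 4C11+, while *Itgb1* fills 65.1% to 77.6% of the beta bar in every line.

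The beta subunits were led by *Itgb1*, the common partner of most alpha chains. It was 9.16 and 9.79 log2 CPM in melan-a, 8.97, 9.66 and 9.83 in 4C, 9.07, 9.07 and 9.31 in 4C11-, and 9.10, 8.87 and 9.21 in 4C11+, with overlap between lines throughout. Its largest difference was -0.41 log2 units, in 4C11+ against melan-a (95% interval -1.03 to 0.20). It held 71.1%, 65.1%, 77.3% and 77.6% of the beta signal per kilobase in melan-a, 4C, 4C11- and 4C11+, followed by *Itgb5* with 24.8%, 33.7%, 21.4% and 18.1%.

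*Itgb3*, which pairs with *Itgav*, was 5.47 and 5.25 log2 CPM in melan-a, 3.41, 2.83 and 4.47 in 4C, 2.33, 2.77 and 0.60 in 4C11-, and 5.02, 4.38 and 4.97 in 4C11+. It was higher in the epithelial lines, although the highest 4C library lay above the lowest 4C11+ library. *Itgb3* rose by 2.89 log2 units in 4C11+ against 4C11- (SE 0.55, adjusted p = 0.00214, limma) and its difference between 4C and melan-a was -1.79 (adjusted p = 0.0759, limma).

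*Itgb8*, of a receptor that activates latent TGF-beta, was 4.53 and 4.76 log2 CPM in melan-a, -3.44, -3.44 and -2.01 in 4C, 0.06, 2.67 and 2.64 in 4C11-, and 1.70, 1.68 and 2.75 in 4C11+. Absent from 4C alone, it fell by at least 5.90 log2 units from melan-a to 4C (adjusted p = 4.3e-05, limma) and was higher in 4C11- than in 4C by at least 3.05 (adjusted p = 0.00588, limma). In 4C11+ it was below melan-a (log2 difference -2.60, SE 0.80, adjusted p = 0.0468, limma), with an adjusted p of 0.155 and 0.132 when melan-a replicate 2 or 3 was left out.

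*Itgb4*, the hemidesmosomal partner of *Itga6*, was 0.06 and -2.58 log2 CPM in melan-a, -1.01, -2.01 and -2.44 in 4C, 0.48, -1.01 and -3.44 in 4C11-, and 2.86, 2.57 and 2.85 in 4C11+. The 3 libraries of 4C11+ lay above all 8 others. The gene rose by 4.08 log2 units in 4C11+ against 4C11- (SE 0.96, adjusted p = 0.00735, limma) and was 4.02 above melan-a (SE 1.07, adjusted p = 0.0264, limma), the latter with an adjusted p of 0.158 without melan-a replicate 3.

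Known alpha-beta pairs were counted when both genes were above 3 reads in every library of a line. Of 24 pairs listed, 17 had values for both genes. In melan-a 13 of these were complete, in 4C11- 14 and in 4C11+ 15. The 4C count was 14 with the pairs of *Itga2* and of *Itga7* with *Itgb1* included. In 4C replicate 3 both alpha genes stood at the value of 3 reads (-1.16 log2 CPM) and not above it. By the rule, these pairs were therefore not complete in 4C, which had fewer complete pairs than 4C11-. *Itga6* with *Itgb4* was complete in 4C11+ only, as a description of these libraries. A subunit was absent from 4C in 3 pairs, those of *Itga8* with *Itgb1*, *Itgav* with *Itgb8* and *Itga6* with *Itgb4*. Presence of both RNAs does not show that the receptor was formed.

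Among the activators, *Tln1*, which couples the beta tail to actin, was 9.66 and 9.49 log2 CPM in melan-a, 8.54, 8.68 and 8.83 in 4C, 9.56, 9.49 and 9.22 in 4C11-, and 8.87, 8.93 and 9.31 in 4C11+. It fell by 0.89 log2 units in 4C (SE 0.21, adjusted p = 0.0126, limma), a call lost without melan-a replicate 2. *Tln2* ranged from 7.39 to 8.22 log2 CPM and was called in no comparison. In the mesenchymal-like against the epithelial lines, the log2 difference was -0.71 for the kindlin *Fermt2* and -1.97 for the haematopoietic kindlin *Fermt3*, and each call was lost in 5 of 16 alternatives. *Fermt3* rose by 2.31 in 4C11+ against 4C11- (SE 0.79, adjusted p = 0.0442, limma) from levels of -2.01 to 0.70 log2 CPM to 1.32 to 2.59. This call was lost in 7 of 17 alternatives, among them the removal of any 1 library of 4C11+.

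In the ILK-PINCH-parvin complex, *Lims2*, which encodes PINCH2, was -1.90 and 0.75 log2 CPM in melan-a, -2.44, -2.01 and -3.44 in 4C, -2.01, -3.44 and -3.44 in 4C11-, and 3.13, 4.31 and 1.61 in 4C11+. Every library of 4C11+ was above every other library. The gene was absent from 4C and 4C11-. It was higher in 4C11+ than in 4C11-, with a bound of 4.59 log2 units from the value at 3 reads. The fitted rise was 5.98 (SE 0.89, adjusted p = 0.000374, limma), so a rise under the bound is not excluded. Over melan-a the rise was 3.59 (SE 0.99, adjusted p = 0.0306, limma), with an adjusted p of 0.256 without melan-a replicate 2. *Lims1*, which encodes PINCH1, ranged from 4.71 to 8.05 log2 CPM and was called in no comparison.

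The parvins, which bind ILK and actin, divided. *Parva* was 0.91 log2 units higher in 4C than in melan-a, and *Parvb* was lower (log2 difference -1.67, SE 0.37, adjusted p = 0.0104, limma), at 6.47 and 5.48 log2 CPM in melan-a and 4.64, 4.46 and 3.80 in 4C. The call of *Parva* was lost in 7 of 17 alternatives, with melan-a replicate 3 left out among them, and that of *Parvb* without replicate 2. *Ilk* stood between -0.70 and 1.40 log2 CPM, but 89.7% of its exon bases overlap *Rrp8* and *Taf10* on the opposite strand, and whether the counting used the strand is not given in the sources used here, so this level is uncertain.

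*Flna* and *Flnc* encode filamins, actin cross-linkers that also bind beta tails, and both rose in 4C and fell in 4C11+. *Flnc* (chromosome 6, 29433256 to 29461883), the form best known from muscle, was 1.87 and -0.24 log2 CPM in melan-a, 7.84, 7.64 and 7.43 in 4C, 6.70, 5.41 and 6.15 in 4C11-, and 1.04, 1.44 and 1.44 in 4C11+. Its rise of 6.82 log2 units in 4C (SE 0.55, adjusted p = 5.2e-06, limma) was the largest fitted increase of the set at that step, and it fell by 4.78 in 4C11+ against 4C11- (SE 0.49, adjusted p = 2.2e-05, limma). The lowest mesenchymal-like library, at 5.41, was above the highest epithelial one, at 1.87.

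*Flna*, at 10.20 to 11.91 log2 CPM over the 11 libraries, rose by 0.90 in 4C, a call lost without melan-a replicate 3, and fell by 1.50 in 4C11+ against 4C11-.

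Tensins connect the beta tail to actin, except for *Tns4*, which lacks the actin-binding region. *Tns4* was 0.06 and -2.58 log2 CPM in melan-a, 4.52, 5.07 and 4.84 in 4C, 3.71, 2.54 and 1.98 in 4C11-, and -2.44, -0.70 and -1.16 in 4C11+. It rose by 6.07 log2 units in 4C (SE 0.80, adjusted p = 0.00027, limma) and was absent from 4C11+, where it fell by at least 2.72 from 4C11- (adjusted p = 0.00104, limma). *Tns3* rose by 1.23 in 4C and fell by 1.19 in 4C11+ against 4C11-, *Tns2* was called in no comparison, and *Tns1* differed by 4.36 between 4C and melan-a (SE 1.67, adjusted p = 0.109, limma), with the 2 melan-a libraries 8.65 apart. In the mesenchymal-like lines *Tns1* was 3.26 higher than in the epithelial ones (SE 1.12, adjusted p = 0.0470, limma), a call lost in 12 of 16 alternatives.

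*Vcl*, encoding vinculin, was 8.46 and 7.01 log2 CPM in melan-a, 7.50, 8.05 and 8.55 in 4C, 7.72, 7.39 and 7.39 in 4C11-, and 6.24, 6.31 and 6.25 in 4C11+. The 4C11+ libraries were the lowest 3 of 11. *Vcl* fell by 1.23 log2 units from 4C11- to 4C11+, a call lost without 4C11+ replicate 1 and without replicate 2. It was also below melan-a (log2 difference -1.47, SE 0.39, adjusted p = 0.0256, limma), with an adjusted p of 0.244 without melan-a replicate 2. Opposite-strand exons of *Ap3m1* cover 25.5% of its exon bases.

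*Actn1*, an alpha-actinin, fell by 0.81 log2 units in 4C11+ against 4C11- (adjusted p = 0.0447, limma), a call lost in 10 of 17 alternatives, which include leaving out any 1 library of 4C, 4C11- or 4C11+. *Vasp*, a promoter of actin filament growth, was lower in 4C11+ than in melan-a (log2 difference -0.93, SE 0.28, adjusted p = 0.0455, limma), a call lost in 11 of 17 alternatives, with each melan-a library left out among them. Of the 13 actin-linked genes, 8 (61.5%) were higher in the mesenchymal-like lines than in the epithelial ones, beside 14.3% of all genes, and the other 5 were not called. *Tns1* and *Vcl* are among the 8, and each lost the call in 12 of 16 alternatives. The 13 include *Tns4* and leave out the talins and parvins, which also link to actin. Of those, *Parva* was higher and *Parvb* lower in the mesenchymal-like lines, and neither talin was called in that comparison. At the step to 4C11+, 7 (53.8%) fell, beside 15.4% of all genes, and the other 6 were not called.

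**Figure D3:**
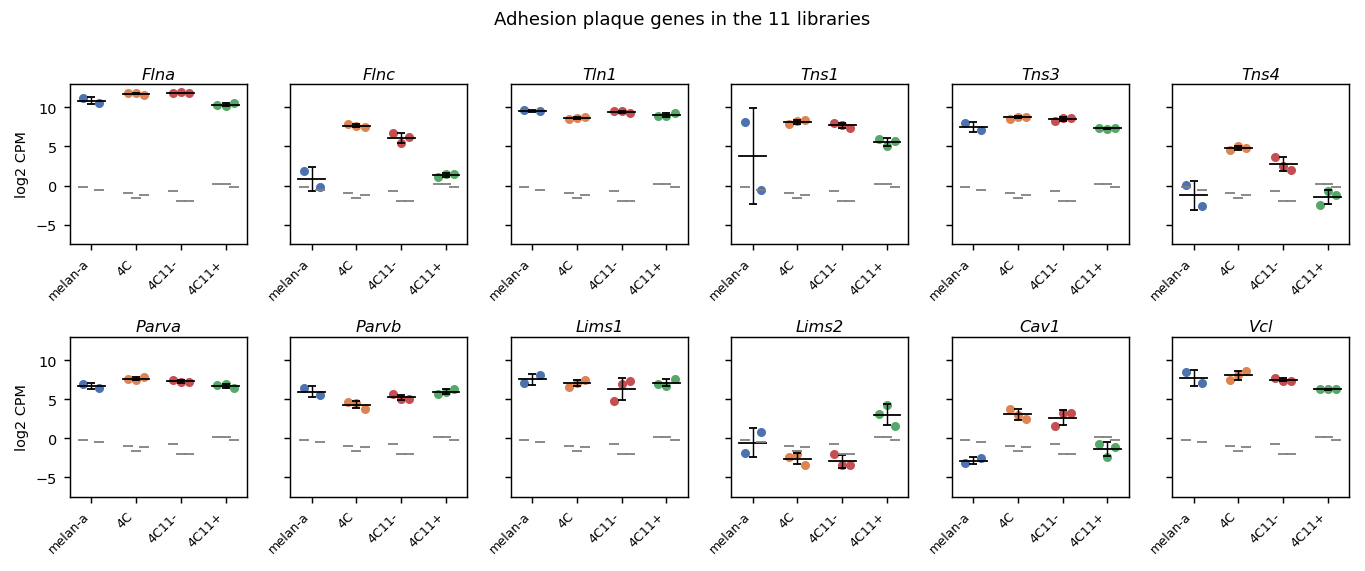
Level of 12 adhesion plaque genes by line, in log2 CPM, with 1 point per library, the mean and SD of the line in black, and the value of 3 reads in each library as grey ticks. *Flnc*, *Tns4* and *Cav1* are high in 4C and 4C11- alone, *Lims2* is high in 4C11+ alone, and the 2 melan-a points of *Tns1* lie 8.65 log2 units apart.

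Of the signalling genes, *Cav1*, which encodes the caveolar protein caveolin-1, was -3.15 and -2.58 log2 CPM in melan-a, 3.78, 2.94 and 2.41 in 4C, 1.57, 3.17 and 3.20 in 4C11-, and -0.70, -2.44 and -1.16 in 4C11+. The gene was absent from both epithelial lines. It was higher in 4C than in melan-a by at least 3.43 log2 units (adjusted p = 0.000138, limma) and fell by at least 2.62 from 4C11- to 4C11+ (adjusted p = 0.000554, limma).

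*Src*, the tyrosine kinase that acts with focal adhesion kinase, was 7.11 and 6.76 log2 CPM in melan-a and 8.06, 8.02 and 7.93 in 4C, higher by 1.07, a call lost in 5 of 17 alternatives, with melan-a replicate 3 left out among them. *Ptk2*, encoding focal adhesion kinase, ranged from 7.26 to 8.48 log2 CPM. Set against the epithelial lines, 4C and 4C11- differed in it by 0.40 log2 units (95% interval 0.03 to 0.77, adjusted p = 0.102, limma). *Pxn* differed by -0.87 between 4C11+ and 4C11- with an adjusted p of 0.0504 in limma, and was past the threshold without either melan-a library, since all lines share 1 estimate of the spread. *Bcar1* differed by 1.19 between 4C11- and 4C (95% interval 0.43 to 1.95, adjusted p = 0.136, limma).

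The comparisons of 4C with melan-a and of 4C11+ with 4C11- share no libraries, although both use 1 estimate of the spread, and their calls were set side by side. Of the 48 genes, 11 were called in both, and all 11 had opposite directions. Of these, 9 rose in 4C and fell in 4C11+ (among them *Cav1*, *Flna*, *Flnc*, *Itga11*, *Itga3*, *Itga9*, *Tns3* and *Tns4*), and 2 fell in 4C and rose in 4C11+ (*Itga6* and *Itga8*). Among all genes, 1369 were called in both and 1246 of these (91.0%) in opposite directions. Genes called in both with opposite directions made up 22.9% of the set and 8.73% of all genes. Without melan-a replicate 2 there were 14 such members, and without replicate 3 there were 9, with directions taken from the fit of all libraries. The share of all genes was not counted without these libraries.

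**Figure D4:**
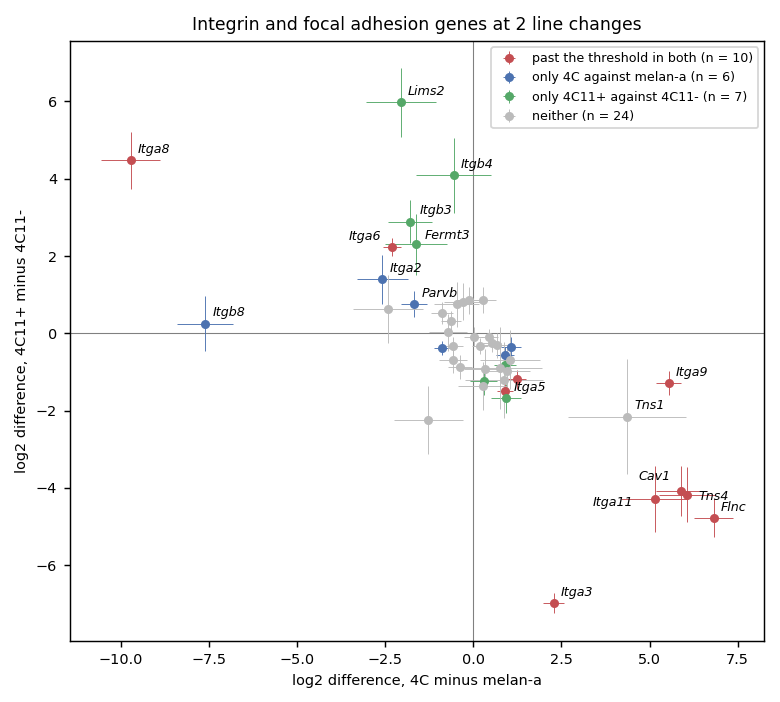
Log2 difference of 47 of the genes in 4C against melan-a (x axis) and in 4C11+ against 4C11- (y axis), with the SE of the limma fit as bars. Colours give the comparison in which a gene passed an adjusted p of 0.05, and values of genes absent from a line are fitted values and not bounds. The 10 plotted genes called in both lie at the upper left or the lower right.

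Other genes of the pathway were taken from 3 lists. Of 33 partners of FAK, Src and paxillin with values (36 listed), 2 rose and 3 fell in 4C against melan-a, 1 rose in 4C11- against 4C, 9 rose and 4 fell in 4C11+ against 4C11-, and 2 rose and 3 fell in 4C11+ against melan-a. Of these partners, 5 were higher and 10 lower in the mesenchymal-like than in the epithelial lines. The share called was 15.2% in 4C against melan-a, beside 15.2% of all genes, and 39.4% in 4C11+ against 4C11-, beside 31.1%. It was 15.2% in 4C11+ against melan-a, beside 15.9%, 3.03% in 4C11- against 4C, beside 1.67%, and 45.5% in the comparison of all 4 lines, beside 29.7%. *Nedd9*, a p130Cas relative, was 6.66 and 5.97 log2 CPM in melan-a, 7.23, 7.37 and 7.85 in 4C, 7.47, 7.53 and 7.21 in 4C11-, and 2.69, 2.52 and 1.70 in 4C11+. It fell by 5.10 log2 units at the step to 4C11+. *Pak1*, a Rac effector kinase, was absent from melan-a and 4C11+ and was higher in the mesenchymal-like lines by at least 3.01 log2 units (adjusted p = 8.0e-07, limma). The Src-family kinase *Fyn* fell by 3.15 in 4C and was the partner that rose in 4C11-, by 1.93.

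Of 15 regulators of integrin activation and trafficking with values (18 listed), 1 changed in 4C against melan-a, *Kank1*, which binds talin, with a rise of 1.27 log2 units. Between 4C11+ and 4C11- 3 rose and 4 fell, and *Rab21*, which carries integrins in endosomes, rose by 1.67 while *Kank1* fell by 1.30. The mesenchymal-like lines had 2 higher and 3 lower than the epithelial ones, and 4C11+ had 2 higher and 1 lower than melan-a. The shares called were 6.67%, 46.7%, 33.3% and 20.0% in these 4 comparisons, beside 15.2%, 31.1%, 29.7% and 15.9% of all genes.

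Of 14 ligands other than collagens and laminins with values (24 listed), 2 rose and 3 fell in 4C against melan-a, 4 rose and 8 fell in 4C11+ against 4C11-, 2 rose and 5 fell in 4C11+ against melan-a, and 8 were higher and 3 lower in the mesenchymal-like than in the epithelial lines. Called were thus 35.7% of the ligands at the step to 4C (15.2% of all genes), 85.7% at the step to 4C11+ (31.1% of all genes) and 78.6% when all 4 lines were used (29.7% of all genes). Between the epithelial lines 7 of the 14 were called, beside 15.9% of all genes. The median ligand difference between 4C11+ and 4C11- was -1.51 log2 units, beside 0.12 for all genes. *Tnc* (tenascin-C), a ligand of the receptor with *Itga9*, was absent from 4C11+ and fell from 4C11-. The bound from the value at 3 reads was 8.85 log2 units. The fitted difference was -9.72 (SE 1.69), so a fall smaller than the bound is not excluded. *Tnc* was 8.30 and -1.42 log2 CPM in the 2 melan-a libraries, which again stood apart.

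*Spp1* (osteopontin) fell by 5.69 log2 units and *Thbs2*, a thrombospondin, by 6.47 in 4C11+ against 4C11-. At this step *Fbln5* rose by 6.25. *Nid1*, which joins laminin to collagen networks, was absent from 4C11- and rose, with a bound of 6.44 from the value at 3 reads. Its fitted rise was 7.40 (SE 0.81), so a rise under the bound is not excluded. *Npnt* (nephronectin), a ligand of the receptor with *Itga8*, was the 1 ligand (7.14%, beside 1.67% of all genes) called in 4C11- against 4C, where it fell by 2.86. *Fn1* (fibronectin) was 10.97 and 8.81 log2 CPM in melan-a, 8.94, 9.16 and 9.60 in 4C, 9.97, 8.99 and 9.27 in 4C11-, and 6.09, 5.97 and 6.51 in 4C11+. In 4C11+ it was below all other libraries, as were members such as *Itga3*, *Vcl* and *Pxn*.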

How the data were processed

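Total RNA of triplicates of each line was depleted of ribosomal RNA and sequenced as stranded libraries. Replicate 1 of melan-a was left out, as not analysed here. By the methods and the submitters' processing notes, the authors trimmed reads with Trimmomatic, aligned them with STAR to the Ensembl mouse genome (GRCm38) and counted them per gene with Rsubread. Genes reaching 1 CPM in 4 or more libraries were kept, and the voom function of limma was applied. Versions and the strand setting of the counting are not given in the sources used here. The deposited values are log2 CPM for 14272 genes. The 11 libraries shared 1 highest value and their medians spanned 0.0106, as a quantile normalization would leave them, and no further step was applied. A gene found in the 3 libraries of 1 line alone would have been left out by the filter of the authors.

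All genes were fitted at once in limma 3.58.1 under R 4.3.3. The model held 1 mean per line, used all 11 libraries and let the prior variance follow a trend with the mean level. P-values were adjusted by the Benjamini-Hochberg method over all genes, and a gene was called at an adjusted p below 0.05. This model was tested on simulated data. Where no library of a line was above 3 reads, the gene was called absent and its difference is a lower bound from the value at 3 reads. This bound, given as "at least", is a difference of means and leaves out the spread between libraries. The limma interval reached below it for *Tnc*, *Nid1* and *Lims2* in 4C11+ against 4C11-. It did so slightly for *Tns4* in that comparison and for *Itgb8* in 4C against melan-a. Read numbers were recovered from the steps among the low values, and depth from the step at 40 reads. Both cover counting error only, and a quantile normalization would leave the depth approximate. The 14248 genes with a symbol were matched through GENCODE on GRCm38, which also gave exon lengths and overlaps, and 24 had none. Sequences and starts are from RefSeq (GRCm38.p6). Tables and figures were made in Python 3.11.15 with NumPy 2.4.6, pandas 2.3.3 and matplotlib 3.10.9.

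The members, lists and motifs were chosen with earlier results of these data known. Any member could be named. In each comparison, up to 8 called members with the largest absolute difference are given in every library, together with partner subunits, and of each pathway list up to 5 called genes without overlap. Further genes were given in every library after their values were seen. Alternatives covered a further quantile normalization, a filter on low means, the variance model, a block for the replicate number, the lines fitted and each library left out. Protein motifs were not analysed here. A gene that is counted in the set is not reported here by name.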

Additional observations from a re-analysis of the deposited data

How the results depend on the processing

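Other settings and each library left out in turn were tried. The counts of called genes of the set were 17 for 4C against melan-a, 1 for 4C11- against 4C, 18 for 4C11+ against 4C11-, 25 for the mesenchymal-like against the epithelial lines and 9 for 4C11+ against melan-a. With 1 library left out they ranged from 13 to 18, 1 to 3, 15 to 22, 20 to 25 and 3 to 11. The shares of all genes called are not set beside these counts or those of the other settings below. The count for 4C11- against 4C was 3 without melan-a replicate 2 and without replicate 3, when *Flnc* and *Itgb5* joined, and that for 4C11+ against melan-a was 3 without 4C11+ replicate 1 and 4 without 4C11+ replicate 2. With genes of a mean under 1 left out the counts were 14, 1, 13, 17 and 6 in the same order. The members lost were then not tested, except *Tns1* and *Vcl* in the comparison of all 4 lines, which were tested and lost the call, and the cause was not tested. Of 540 recomputed differences of the 33 named with values in every library, 30 lost the call and 0 reversed, and 26 of the 30 were in 4C11+ against melan-a. They concerned 6 differences, of *Itga2* in 4C against melan-a and of *Itga8*, *Itgb4*, *Itgb8*, *Lims2* and *Vcl* in 4C11+ against melan-a.

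Whether the replicate numbers pair the libraries could not be decided. Over 15 same-numbered pairs of libraries from different lines the correlation of deviations was -0.23 to 0.39, with 8 above 0.1. Over the 30 pairs with unlike numbers it was -0.42 to 0.34, with 11 above 0.1. Deviations from a mean of 2 or 3 libraries depend on each other, so these correlations cannot exclude a pairing. With the replicate number as a block the counts were 17, 3, 21, 27 and 6, and the 3 of 4C11- against 4C included *Bcar1* and *Itgb5*. Melan-a had 2 libraries and each other line 3, and *Itgb4*, *Fermt3* and *Lims2* lay near 3 reads in some lines. Small differences, in such low genes in particular, may therefore have been missed.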
